A study of Mus musculus with 6 samples.

Results

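The genes of the atrophy ligases and of the FoxO factors that stand above them were followed through differentiating C2C12 cells. They are 6 genes, Fbxo32, Trim63, Foxo1, Foxo3, Foxo4 and Klf15, taken by symbol from a table of 20950 entries, and each symbol occurred once. C2C12 is a clonal line of mouse myoblasts, which withdraw from the cell cycle and form myotubes in low serum, so the values describe 1 line. RNA was sequenced in 6 libraries from 5 conditions. Growing cells were kept in 10% FBS (fetal bovine serum), and differentiating cells in 2% HS (horse serum) or 0.2% FBS, each with or without exosomes isolated from FBS with commercial kits. The exosomes were added at the amount held by 10% FBS. There were 2 libraries of 0.2% FBS + exosome (replicates 1 and 2) and 1 of every other condition. No label says whether replicates 1 and 2 came from separate cultures, so their spread may be technical.

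In muscle, Fbxo32 (atrogin-1, also called MAFbx) is the substrate-binding F-box subunit of a cullin-based ubiquitin ligase, and Trim63 (MuRF1) is a RING-finger ubiquitin ligase of the sarcomere. Both are known as genes that rise when muscle wastes. Foxo1, Foxo3 and Foxo4 encode forkhead transcription factors that enter the nucleus when insulin and Akt signalling is low, and they are known activators of both ligase genes. Klf15 encodes a zinc-finger factor that the glucocorticoid receptor induces in muscle and that is known to act on both ligases and on branched-chain amino acid breakdown.

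The authors deposited FPKM, reads divided by transcript length and library depth, so levels can be set side by side between genes. The table holds no counts. From the spacing of low values the depth was estimated at between 33800000 and 39400000 reads per library, and the FPKM of a library summed to between 461439 and 515215. The cells carried their label: the myoblast genes Myod1 and Des were at 83.7 FPKM or more and 543 FPKM or more in every library, and Pax7 was at 0.62 FPKM or less. Of 6 markers of other cells (Ptprc, Pecam1, Epcam, Alb, Adipoq and Hbb-b1), between 2 and 5 were at 0 in each library and their summed level did not exceed 0.15 FPKM. Every difference below is one of log2(FPKM + 1), on which low genes appear to change less than they do, and a gene was taken as past the fold when this passed 1 or −1, the threshold of the study. The median of the 10726 genes tested, those with a mean of at least 1 FPKM, moved by 0.14 with exosomes in 0.2% FBS and by −0.04 in 2% HS. Scaling the libraries to the same 75th percentile brought these medians to 0.043 and −0.0057.

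The 2 ligase genes moved in opposite directions. With exosomes in 0.2% FBS, Fbxo32 rose from 24.5 FPKM to 50.7 ± 4.17 (SD, n = 2), against 45.3 in growing cells, and Trim63 fell from 27.0 FPKM to 15.5 ± 2.1, against 14.4 in growing cells. Foxo1, Foxo3 and Foxo4 were a little higher in each exosome library of 0.2% FBS, by less than the test could call. Klf15 was near 0 everywhere. In 2% HS, all 5 measurable members differed with exosomes by 0.23 or less on the log2 scale, and none was past the fold, as 0.354% of the genes tested were upward and 0.298% downward.

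**Figure D1:**
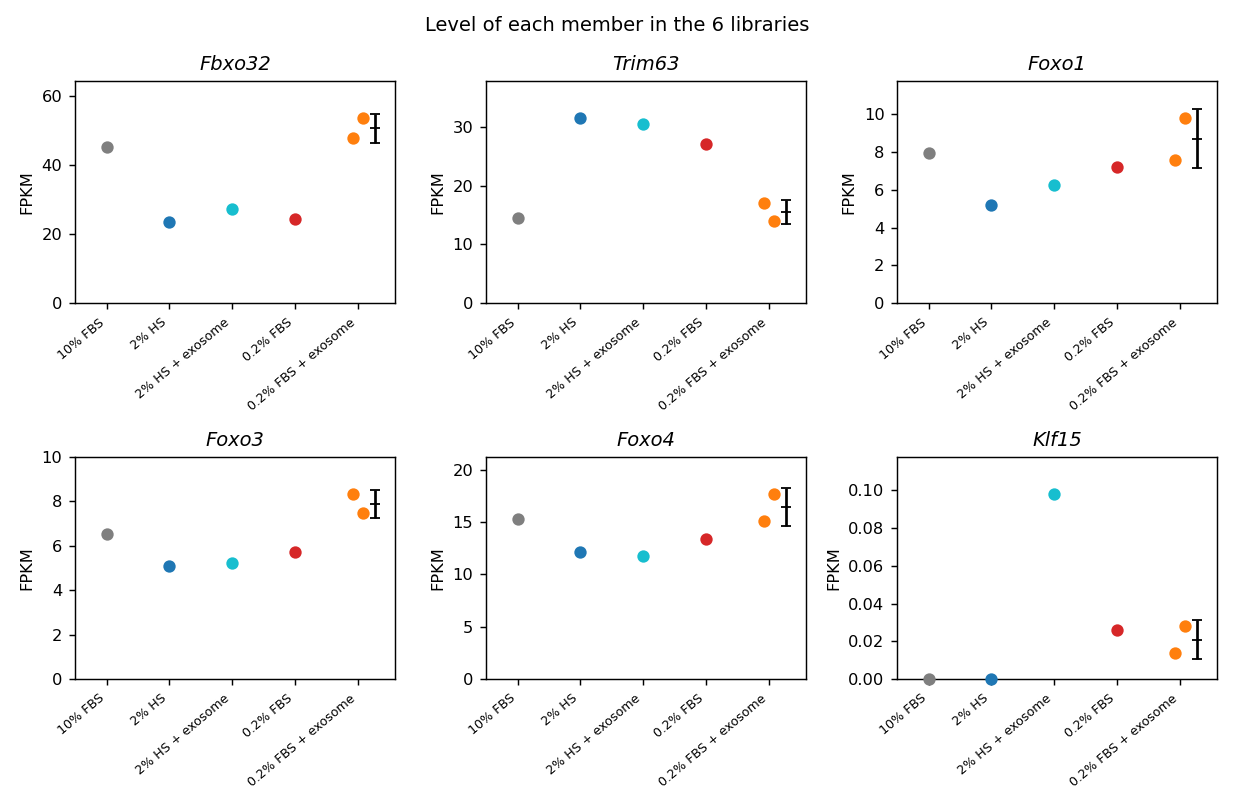
FPKM (linear axis from 0, scaled to each gene) of the 6 genes, with 1 point per library and conditions along the horizontal axis; the black bar beside 0.2% FBS + exosome is the mean ± SD of its 2 libraries. Fbxo32 is high in 10% FBS and 0.2% FBS + exosome, Trim63 is high in the other 3 conditions, and Klf15 does not exceed 0.0981 FPKM.

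Fbxo32, on the minus strand of chromosome 15 (chr15:58175879-58214932, mm10), was at 45.3 FPKM in 10% FBS, 23.5 in 2% HS, 27.5 in 2% HS + exosome and 24.5 in 0.2% FBS. In 0.2% FBS + exosome it was at 47.8 FPKM in replicate 1 and 53.7 in replicate 2, or 50.7 ± 4.17 (SD, n = 2). Sorted by these values, the libraries fell into a high set, 10% FBS and both exosome libraries of 0.2% FBS, and a low set of the other 3. The sets were drawn from the Fbxo32 values, so their separation is a description and no test. A like pattern was common: 683 of 10725 genes had a Pearson r above 0.95 with Fbxo32. The low set lay between 23.5 and 27.5 FPKM, with 1 library per condition and so no test of its order, and 10% FBS stood nearer to replicate 1 than replicate 2 did. The estimated reads behind the values were 6122 in 0.2% FBS and 11424 and 12290 with exosomes.

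With exosomes in 0.2% FBS, Fbxo32 FPKM was 1.95 and 2.19 times that of the control in replicates 1 and 2. On the log2(FPKM + 1) scale the change was 0.94 and 1.10, with a mean of 1.02 (SD 0.12, n = 2), so it passed the fold on the mean and in replicate 2 but not in replicate 1. No member passed it in each library, as 1.61% of the genes tested did downward and 0.895% upward. After the scaling the Fbxo32 change was 0.86 and 0.96, with a mean of 0.91, so it passed the fold in neither library nor on the mean. A limma fit with 1 mean per condition gave Fbxo32 a change of 1.02 (SE 0.17, adjusted p = 0.0133, higher in 2 of 2 exosome libraries). It was the 1 member of the 5 tested to pass upward, where 8.2% of all genes did (7.85% after the scaling). This fit takes its spread from replicates 1 and 2 alone, and the lone control is assumed to vary as they do. limma draws the spread of each gene toward that of the other genes tested, so the SE does not rest on the Fbxo32 values alone. The call was lost without the filter on low values (adjusted p = 0.244) and in a fit with 1 exosome effect for both media (0.67, SE 0.21, adjusted p = 0.705), in which limma called 0 of 10726 genes and 708 had an unadjusted p under 0.05.

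In 2% HS, where 1 library was set against 1, the Fbxo32 change with exosomes was 0.21 and has no replicate check. When the 2% HS change was subtracted from the 0.2% FBS change, 0.81 was left in limma (SE 0.26, adjusted p = 0.154), so a difference between the media did not pass. Without exosomes, Fbxo32 was lower than in 10% FBS by a log2 difference of −0.86 in 0.2% FBS and −0.91 in 2% HS. Of the 10726 genes, 1.55% and 0.792% were lower by as much in these 2 comparisons. GENCODE lists a gene on the opposite strand, Gm15943, that overlaps Fbxo32, and 114 of the 6902 stretches of 75 bases in the Fbxo32 transcript (1.65%) occur in it. The strand setting of the FPKM calculation is not given in the sources used here, so this small part of the reads cannot be assigned.

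Trim63 lies on the plus strand of chromosome 4 (chr4:134315120-134329629). Its RefSeq promoter is shown because it holds, next to each other, the sites through which FoxO factors and the glucocorticoid receptor are known to act on this gene. The 250 bases before the start site are chr4:134314870-134315119 of GRCm38.p6, plus strand, with the matches of 3 motifs in capitals. These are GTAAACA of FoxO factors, AGAACA of the glucocorticoid receptor, and CANNTG, the general E-box, which is not particular to MyoD and myogenin.
Trim63: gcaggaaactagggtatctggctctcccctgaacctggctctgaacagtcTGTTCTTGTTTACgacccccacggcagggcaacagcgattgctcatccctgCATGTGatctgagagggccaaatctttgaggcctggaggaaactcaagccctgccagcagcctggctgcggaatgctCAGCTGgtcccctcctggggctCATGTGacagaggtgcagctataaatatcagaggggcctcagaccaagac
The run of capitals nearest the left end joins the receptor motif, from −200 to −195, to the FoxO motif, from −194 to −188, both read on the opposite strand. Among 32851 RefSeq promoters of 300 bases, searched on both strands, 3.65% held GTAAACA, 19.0% held AGAACA and 72.3% held CANNTG. RefSeq promoters were matched for 4 of the 6 members, Trim63, Foxo1, Foxo3 and Klf15. Neither GTAAACA nor AGAACA occurred in the windows of Foxo1, Foxo3 and Klf15. Klf15 held 3 matches of CANNTG, all reading CACGTG, and Foxo1 held 1. A match is a run of letters and says nothing of binding in these cells.

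Trim63 was at 14.4 FPKM in 10% FBS, 31.5 in 2% HS, 30.4 in 2% HS + exosome and 27.0 in 0.2% FBS. In 0.2% FBS + exosome it was at 17.0 FPKM in replicate 1 and 14.0 in replicate 2, or 15.5 ± 2.1 (SD, n = 2). The 3 low values were those of the libraries in which Fbxo32 was high, and the value of 10% FBS lay between replicates 1 and 2. Trim63 FPKM was 1.87 times the 10% FBS level in 0.2% FBS and 2.18 times in 2% HS. The log2 difference was 0.86 in 0.2% FBS and 1.07 in 2% HS. In the latter, Trim63 was the only member past the fold, as 1.79% of the genes tested were upward and 0.522% downward. In 0.2% FBS against 10% FBS no member passed it, where 1.79% of the genes were past it upward and 0.69% downward.

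With exosomes in 0.2% FBS, Trim63 stood at 0.629 and 0.519 of the control in replicates 1 and 2. The log2 change was −0.64 and −0.90, with a mean of −0.77 (SD 0.18, n = 2). In the limma fit with 1 mean per condition its change was −0.77 (SE 0.17, adjusted p = 0.0285, lower in 2 of 2 exosome libraries). It was the 1 member of 5 to pass downward, where 4.33% of all genes did (7.4% after the scaling). The call was lost without the filter on low values (adjusted p = 0.258) and with 1 exosome effect for both media (−0.46, SE 0.20, adjusted p = 0.705). In 2% HS the change was −0.05. The same difference between the media was −0.72 (SE 0.27, adjusted p = 0.199) and did not pass. limma passed 0 of the 5 members for this difference, 2 of them (Fbxo32 and Trim63) had an unadjusted p under 0.05, as 2091 of the 10726 genes did, and after adjustment over all genes 0.867% passed downward and 0.298% upward (2.31% and 0.951% after the scaling, with no member passing).

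**Figure D2:**
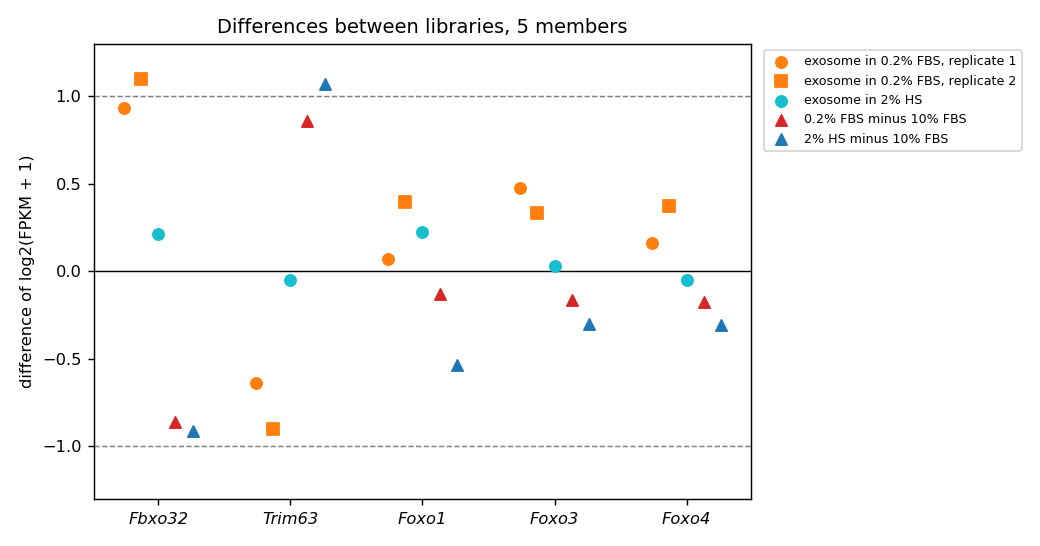
Difference of log2(FPKM + 1) for the 5 members with a mean of at least 1 FPKM, with 1 point per comparison and the fold of 1 and −1 dashed. Orange points are the exosome libraries of 0.2% FBS against the same control; Fbxo32 and Trim63 move in opposite directions in every comparison, and all 3 FoxO genes lie within 0.54 of 0.

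Because FPKM is per length, the ligases can be set against each other within a library. The ratio of Fbxo32 to Trim63 was 3.14 in 10% FBS, and it was 0.749 in 2% HS, 0.904 in 2% HS + exosome and 0.906 in 0.2% FBS. In 0.2% FBS + exosome it was 2.81 and 3.83 in replicates 1 and 2. So Fbxo32 had the higher FPKM in growing cells and in the exosome-treated cells of 0.2% FBS, and Trim63 in the other 3 libraries, by a smaller margin. Which transcript was the more abundant in those 3 cannot be settled, with 1 library per condition and transcript lengths from an annotation that is not given. The ratio of 10% FBS lay between those of replicates 1 and 2. The summed level of both ligases varied less, from 51.5 FPKM in 0.2% FBS to 67.7 FPKM in replicate 2.

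**Figure D3:**
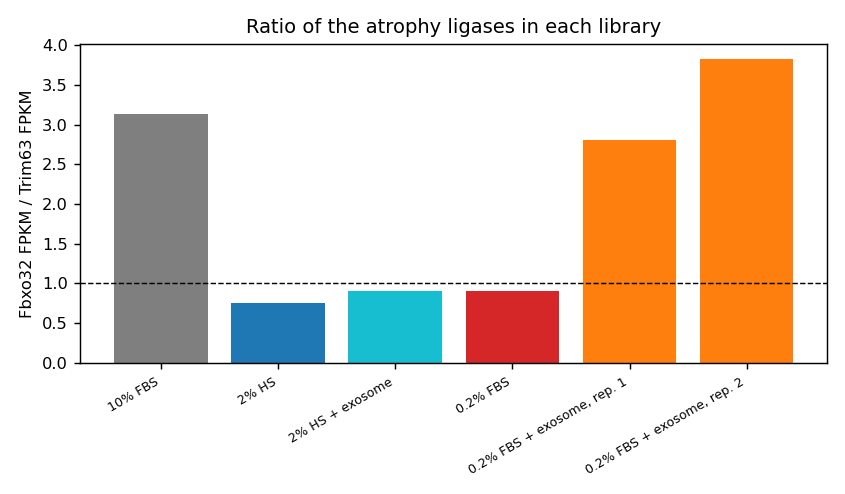
Fbxo32 FPKM divided by Trim63 FPKM in each library (linear axis from 0; 1 bar per library, no error bars; the dashed line marks equal levels). The bars of 10% FBS and both 0.2% FBS + exosome libraries are at 2.81 or more and the other 3 are at 0.906 or less.

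The same split of the libraries was seen in genes of the myotube. The summed FPKM of 8 markers of differentiated myotubes was 4695 in 10% FBS and 4871 and 3442 in replicates 1 and 2 of 0.2% FBS + exosome, against 9769 to 11080 in the other 3 libraries. All 8 were lower in both exosome libraries of 0.2% FBS, as 27.5% of all genes were, with a median change of −1.42 beside 0.14 over all genes tested. Of the 8, 4 passed limma downward (6 after the scaling), against 4.33% of all genes (7.4% after the scaling), namely Tmem8c (−1.37, adjusted p = 0.0485), which drives fusion, and the sarcomere genes Tnnt3 (−1.81, adjusted p = 0.029), Actn2 (−2.10, adjusted p = 0.00453) and Ttn (−1.12, adjusted p = 0.0309). Myh3 (−1.58, adjusted p = 0.0587) and Acta1 (−1.46, adjusted p = 0.159) were past the fold in each exosome library without passing, and Myh3 passed after the scaling (adjusted p = 0.03). Of the 4 tested myoblast genes, 1 passed limma upward, where 8.2% of all genes did (7.85% after the scaling). This was Myf5, which rose by 0.96 (adjusted p = 0.0196). Cdh15 was at 0.29 (adjusted p = 0.387), Des at −0.92 (adjusted p = 0.12) and Myod1 at −0.23 (adjusted p = 0.472). In bulk RNA, fewer cells of a type and less RNA per cell cannot be told apart, and the part of the share of myotubes in the ligase values was not tested.

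Of the 3 FoxO members, Foxo4 was the most abundant per length in every library. Foxo4 (chrX:101254528-101260873, plus strand) was at 15.3 FPKM in 10% FBS, 12.2 in 2% HS, 11.7 in 2% HS + exosome, 13.4 in 0.2% FBS, and 15.1 and 17.7 in replicates 1 and 2 of 0.2% FBS + exosome. The 10% FBS value lay between the replicates. The exosome change in 0.2% FBS was 0.16 and 0.38 (mean 0.27, SE 0.17, adjusted p = 0.311 in limma), and in 2% HS it was −0.05.

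Foxo1 (chr3:52268336-52353221, plus strand) was at 7.95 FPKM in 10% FBS, 5.17 in 2% HS, 6.23 in 2% HS + exosome and 7.18 in 0.2% FBS, and at 7.59 and 9.78 in replicates 1 and 2. Replicates 1 and 2 differed by more than replicate 1 did from 0.2% FBS or 10% FBS. Its lowest values were the 2 of horse serum, where it was lower than in 10% FBS by a log2 difference of −0.54, against −0.13 in 0.2% FBS. The exosome change was 0.07 and 0.40 in 0.2% FBS (mean 0.23, SE 0.19, adjusted p = 0.434) and 0.23 in 2% HS, and the difference between these was 0.0066 (SE 0.29, adjusted p = 0.992), with a sign that turned after the scaling (−0.12) and with a pseudocount of 0.1 (−0.0035). After the scaling, replicate 1 was at 0.0054, so the rise of Foxo1 rests on replicate 2 (0.27). Of its 8591 stretches of 75 bases, 527 (6.13%) occur in Gm20402, an annotated gene on the opposite strand.

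Foxo3 (chr10:42181841-42276755, minus strand) was the least abundant of the 3 FoxO members in 5 of the 6 libraries. It was at 6.52 FPKM in 10% FBS, 5.10 in 2% HS, 5.24 in 2% HS + exosome and 5.70 in 0.2% FBS, and at 8.33 and 7.45 in replicates 1 and 2. Of these 3 genes it was the only one for which both replicates lay above all other libraries. The exosome change in 0.2% FBS was 0.48 and 0.33 (mean 0.41, SE 0.17, adjusted p = 0.139, unadjusted p = 0.0401 in limma), the largest of the 3, and in 2% HS it was 0.03. Of all genes tested, 22.6% rose by as much on the mean, so the size is a common one in this comparison. All 3 FoxO genes were higher in both exosome libraries of 0.2% FBS, where 55.2% of all genes were.

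Klf15 (chr6:90462576-90475238, plus strand) was listed at 0 FPKM in 10% FBS and 2% HS. It was at 0.0981 FPKM in 2% HS + exosome, 0.0258 in 0.2% FBS and 0.0135 and 0.0282 in replicates 1 and 2 of 0.2% FBS + exosome. With the annotated transcript of 2482 bases these values correspond to an estimated 7.61, 2.18, 1.09 and 2.18 reads. The gene was therefore at or below a few reads in each library, it did not enter the test, and no fold is given.

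The genes around the members were described from lists of pathway members. Of 12 other ubiquitin ligases of muscle that were tested (13 listed), limma called 1 higher and 1 lower with exosomes in 0.2% FBS, near the 8.2% and 4.33% of all genes, and the median change was 0.25 beside 0.14 over all genes. The lower one was Trim54 (MuRF3), a close relative of Trim63. Trim54 was at 24.4 FPKM in 10% FBS, 52.1 in 2% HS, 61.4 in 2% HS + exosome and 51.5 in 0.2% FBS, and at 21.5 and 21.1 in replicates 1 and 2. Its libraries split as those of Trim63 did, and its change was −1.24 (SE 0.16, adjusted p = 0.00766 in limma). The higher one was Trim32, a ligase of the tripartite-motif family like Trim63. Trim32 stood at 9.13 FPKM without and 14.4 and 14.1 FPKM with exosomes in 0.2% FBS, a change of 0.59 (SE 0.16, adjusted p = 0.0445) that did not pass after the scaling (0.49, adjusted p = 0.0558). Fbxo21, an F-box gene like Fbxo32, was at 0.51 (adjusted p = 0.0797). Skp1a, Cul1 and Rbx1, the subunits that join Fbxo32 to the ubiquitin machinery, had changes of 0.16, 0.01 and 0.17 and none passed.

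Genes of proteins that the ligases are known to mark for breakdown formed another list, in which Ckm is shared with the myotube markers and Myod1 and Des with the myoblast markers. Of 8 tested substrate genes, 2 passed limma downward (4 after the scaling) and 0 upward, against 4.33% (7.4%) of all genes downward. In both exosome libraries of 0.2% FBS 7 had lower values, as 27.5% of all genes did, and the median was −1.27. Myh4, a fast myosin heavy chain, stood at 35.0 FPKM without and 7.87 and 4.54 FPKM with exosomes in 0.2% FBS, a change of −2.36 (SE 0.26, adjusted p = 0.00649). Mybpc1, a myosin-binding protein, went from 22.0 to 9.23 and 6.24 FPKM (−1.42, adjusted p = 0.01). The myosin light chains Mylpf (−1.75, adjusted p = 0.144) and Myl1 (−1.61, adjusted p = 0.0843) were past the fold in each library without passing limma. After the scaling Myl1 passed (−1.72, adjusted p = 0.0452) and Mylpf did not (adjusted p = 0.0905). Eif3f, a translation factor known as an Fbxo32 substrate, was the exception, at 119 FPKM in 0.2% FBS and 143 and 166 with exosomes.

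Among 21 known FoxO target genes, limma called 3 higher and 0 lower, against 8.2% and 4.33% of all genes. The median change was 0.31 beside 0.14 over all genes, and 15 of the 21 were higher in both exosome libraries, as 55.2% of all genes were. After the scaling 4 were called higher and 1, Sod2, lower, against 7.85% and 7.4% of all genes. Irs2, an adaptor of the insulin receptor, was at 1.40 FPKM in 0.2% FBS, 4.27 and 3.47 with exosomes and 3.47 in 10% FBS, a rise of 1.02 (SE 0.19, adjusted p = 0.0182). Gabarapl1, a protein of the autophagosome membrane, was at 34.4 FPKM in 0.2% FBS, 59.5 and 76.6 with exosomes and 46.3 in 10% FBS, a rise of 0.96 (SE 0.20, adjusted p = 0.0231). Ccng2, a cyclin of resting cells, was the third (0.90, adjusted p = 0.024). Sesn3, a stress protein that restrains mTOR, stood at 1.95 FPKM without and 3.52 and 6.05 FPKM with exosomes in 0.2% FBS. Its 0.94 just missed (adjusted p = 0.0511), and it passed limma upward after the scaling (0.86, adjusted p = 0.0404). In 2% HS the list had a median of 0.04, and these 4 genes lay between −0.12 (Irs2) and 0.05 (Gabarapl1).

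Of 17 tested regulators of FoxO activity, 1 was called higher and 0 lower, near the 8.2% and 4.33% of all genes, with a median of 0.20 beside 0.14. It was Irs1, the other insulin receptor adaptor, at 11.4 FPKM in 0.2% FBS and 22.4 and 18.8 with exosomes (0.80, SE 0.17, adjusted p = 0.0248). Pik3ca, the catalytic subunit of the lipid kinase upstream of Akt, was at 0.55 (adjusted p = 0.0546). Akt2 was at −0.53 and passed only after the scaling (−0.64, adjusted p = 0.0449). Of 9 tested genes of the glucocorticoid receptor and its targets, 1 was called higher and 0 lower, against 8.2% and 4.33% of all genes (1 and 1 after the scaling, against 7.85% and 7.4%). The higher one was Ddit4 (0.80, adjusted p = 0.0424), an inhibitor of mTOR signalling. Dusp1, Mt2 and Glul were higher mainly in replicate 2, at 1.25, 1.24 and 1.38 against 0.49, 0.38 and 0.41 in replicate 1, and did not pass. Tsc22d3, a direct target of the receptor, was at −0.49 in 0.2% FBS (adjusted p = 0.0866) and 0.59 in 2% HS, and was the gene called lower after the scaling (−0.59, adjusted p = 0.0296). Of the 4 tested genes of branched-chain and proline catabolism (7 listed), a route known to be under Klf15, none was called by limma; the largest changes were those of Dbt (−0.37), Gpt (0.36) and Bckdha (0.32).

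**Figure D4:**
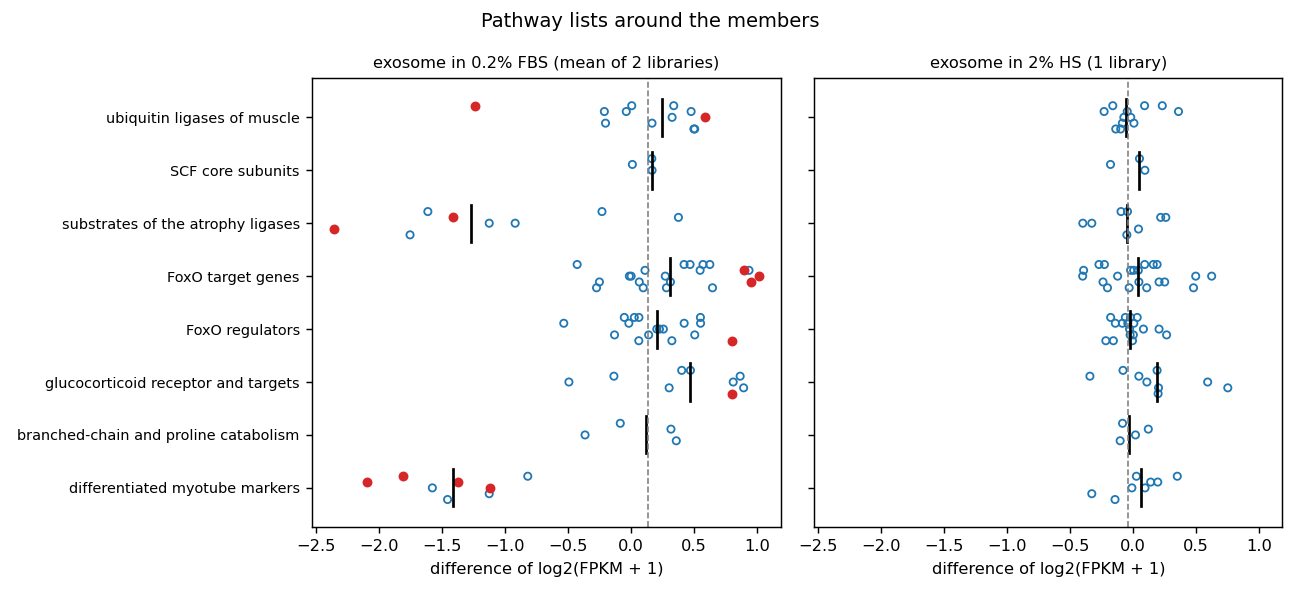
Difference of log2(FPKM + 1) with exosomes for the genes of 8 lists with a mean of at least 1 FPKM, in 0.2% FBS (left) and 2% HS (right); red points passed limma in 0.2% FBS, black lines are list medians and the dashed line is the median of all genes tested. Substrate and myotube genes lie to the left in 0.2% FBS, with medians of −1.27 and −1.42, and near 0 in 2% HS.

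The genes whose pattern over the 6 libraries was most like that of a member were ranked by Pearson r of log2(FPKM + 1) among the genes tested. With only 6 points, high coefficients were common. Of 10725 genes, 683 exceeded 0.95 with Fbxo32, 218 with Trim63, 123 with Foxo1, 309 with Foxo3 and 549 with Foxo4. These coefficients are a description. For Fbxo32 the nearest were Sema4c (r = 0.999), Cbx2, Suds3, Eml4 and Sfxn5. For Trim63 they were Dpep1 (r = 0.996), Tmbim4, 2200002D01Rik, Porcn and Msln. For Foxo1 they were Crtc1 (r = 0.992), Mast4, Cmip, Dip2b and Ppp3ca. For Foxo3 they were Rbm15b (r = 0.997), Baiap2, Adnp2, Vps26b and Zscan22. For Foxo4 they were Edc3 (r = 0.99994), L3mbtl3, Src, Gng10 and Acy1, and Edc3 was at 7.47 FPKM in 10% FBS, 5.40 in 2% HS, 5.11 in 2% HS + exosome, 6.21 in 0.2% FBS and 7.37 and 9.11 in replicates 1 and 2.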

How the data were processed

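Total RNA of C2C12 cells was made into stranded mRNA libraries and sequenced from a single end, with reads of 75 bases. Before deposition the authors trimmed them with cutadapt 1.9.1, mapped them to mm10 with TopHat2 2.1.0 and deposited FPKM values from Cufflinks, 1 column per library. The annotation and strand setting are not given in the sources used here. The values were used as deposited, as log2(FPKM + 1). Rows of repeated names (10) were left out, and a mean of 1 FPKM or more was required for testing (10726 genes).

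The study calls genes by a log2 fold change past 1 or −1, which was kept. limma 3.58.1 (R 4.3.3) was fitted to all 6 libraries with 1 mean per condition, a mean-variance trend and Benjamini-Hochberg adjustment, leaving 1 residual degree of freedom per gene. The spread of each gene was drawn toward the trend over all genes fitted. An alternative fit used the 5 differentiating libraries with a medium term and 1 exosome effect. The depth estimate used the low values of 2442 genes that have 1 annotated transcript, assuming fragments of 200 bases, since without counts no interval can be given. Positions are from GENCODE vM21, and promoters from RefSeq on GRCm38.p6. All 6 genes are named, and of each list every gene past the fold in each exosome library of 0.2% FBS or in 2% HS, and the 3 largest changes in 0.2% FBS, except 1 gene that is not reported here. Other named genes were chosen after their values were seen, among them Ccng2, Eif3f, Ddit4, Akt2, Tsc22d3 and Sod2. The members and lists were chosen with earlier results of these data known.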

Additional observations from a re-analysis of the deposited data

Results flagged for a closer look

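In 3 of the 83 list genes tested the exosome changes of the 2 media differed by a limma contrast whose spread rests on replicates 1 and 2 alone, where 0.867% of all genes passed downward and 0.298% upward. Subtracting the 2% HS change from the 0.2% FBS change left −1.47 for Trim54 (SE 0.25, adjusted p = 0.0358), −2.40 for Myh4 (SE 0.39, adjusted p = 0.0335) and −2.30 for Actn2 (SE 0.30, adjusted p = 0.0186). Each was lower in both exosome libraries of 0.2% FBS and higher in the exosome library of 2% HS, by 0.23, 0.04 and 0.20. After the scaling these 3 passed again, and so did Mybpc1 (−1.81, adjusted p = 0.0223), Tsc22d3 (−1.22, adjusted p = 0.0253) and, upward, Myf5 (1.36, adjusted p = 0.0258), against 2.31% of all genes downward and 0.951% upward. Without the filter on low values the contrast called 0 of 16443 genes in limma (2275 had an unadjusted p under 0.05), so these calls end there. None of the 5 tested members passed in any of these fits.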

How the results depend on the processing

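Over the alternatives tried, the 5 tested members kept the direction of their mean exosome change in 0.2% FBS. The limma calls of Fbxo32 and Trim63 were kept with a pseudocount of 0.1, with the scaling and without the mean-variance trend. They were lost without the filter and with 1 common exosome effect (also without replicate 1 or 2, where changes ran from 0.57 to 0.66 for Fbxo32 and from −0.47 to −0.34 for Trim63). Over all genes, the 1343 limma calls of the exosome change became 0 in those same fits, with 3120 (no filter), 708 (common effect), 402 (without replicate 1) and 294 (without replicate 2) genes at an unadjusted p under 0.05. The 125 calls of the difference between media became 0 without the filter (16443 genes), 350 with the scaling and 45 without the trend. The cause was not tested. The scaling moved the calls from 464 lower and 879 higher to 794 and 842. Genes past the fold with exosomes in 0.2% FBS numbered 269 (35.7% higher; 22.9% with the scaling), 434 with a pseudocount of 0.1, 414 with values below 1 FPKM raised to 1, and 338 to 617 without 1 replicate, the higher value without replicate 1. In 2% HS, 70 became 126 and 123. For 0.2% FBS against 10% FBS, 266 became 455 and 440, and for 2% HS against 10% FBS, 248 became 402 and 375. The scaled list counts were added after the data were seen. Within a medium the control and exosome libraries share fewer than 2 numbers. A fit over the 2 same-numbered pairs, with the number as a replicate block, was added after the data were seen, and since number and medium coincide it equals the common-effect fit without replicate 2. It gave 0.57 for Fbxo32 and −0.34 for Trim63 and called 0 genes. The labels number the 2% HS libraries 1, 0.2% FBS and replicate 1 of its exosome libraries 2, and replicate 2 3, so medium and number cannot be told apart.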

Other observations

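Foxo6, the fourth FoxO gene of the mouse and outside the 6 members, was chosen after its values were seen. It was at 8.19 FPKM in 10% FBS, 7.15 in 2% HS, 8.48 in 2% HS + exosome and 10.0298 in 0.2% FBS, and at 7.75 and 5.28 in replicates 1 and 2 of 0.2% FBS + exosome. Its exosome change in 0.2% FBS was −0.57 (SE 0.21, adjusted p = 0.111 in limma), lower in 2 of 2 exosome libraries, whereas Foxo1, Foxo3 and Foxo4 were higher in both. In 2% HS it was 0.22, and the difference between the media was −0.79 (SE 0.33, adjusted p = 0.239).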
